A study of Rattus norvegicus with 6 samples.

Results

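Cytosolic ribosomal proteins are the protein components of the small and the large ribosomal subunit outside mitochondria. Their genes were taken as those with a rat symbol of Rpl or Rps followed by a number, or Rpsa, Rplp0, Rplp1 or Rplp2, without the Rps6k kinase genes, pseudogenes and LOC symbols. The array held 242 named probes of 82 such genes, and 79 of them, 30 of the small and 49 of the large subunit, had a probe flagged well above background on every array of a group, which was the condition for a test. These 79, out of 11344 named genes tested, met it on all 6 arrays. The genes Rpl27l2, Rpl39l1 and Rps12l4 were not measured by this rule. Liver RNA came from 6 male Sprague-Dawley (Crl:CD(SD)) rats bought at 5 weeks of age, with 1 array per rat. In 3 rats ADBAQ (1-amino-2,4-dibromoanthraquinone, an anthraquinone dye intermediate) was given at 1000 mg/kg/day, and 3 rats had vehicle. The labels disagree on the vehicle, which is corn oil in the treatment protocol and purified water in the characteristics, and on the duration, which is 9 weeks in that protocol and 28 days elsewhere.

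Ribosomal protein mRNAs are among the most abundant of a cell, and each protein except those of the stalk is present as a single copy per ribosome, so the set is made in matched amounts. In mammals these mRNAs mostly begin with a C followed by a run of pyrimidines, the 5' terminal oligopyrimidine (TOP) motif, through which mTOR and the RNA-binding protein LARP1 control their translation. In liver, a tissue that makes most plasma proteins, several of these transcripts serve as reference genes for expression measurements.

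The sequences around the annotated transcription start show what the members share beyond their names. RefSeq's table for the assembly GRCr8 held 63 of the 79 genes. Each line gives the 40 bases before and the 20 bases after the start, 5' to 3' on the transcribed strand, with the longest run of C or T that touches the 15 bases on either side of the start in capitals. Rpl10 and Rps2 have the lowest fold changes of their subunits, Rplp0 is a stalk protein, Rpl22 and Rpl22l1 are paralogues, and Rps19 is the highest small subunit member.
Rpl10 (chrX:157205810-157205869, plus strand): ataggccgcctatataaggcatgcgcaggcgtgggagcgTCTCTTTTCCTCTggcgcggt
Rps2 (chr10:14251808-14251867, plus strand): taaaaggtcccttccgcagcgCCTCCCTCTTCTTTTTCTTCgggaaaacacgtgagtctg
Rplp0 (chr12:46718371-46718430, minus strand): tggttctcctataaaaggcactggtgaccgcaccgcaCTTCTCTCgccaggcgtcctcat
Rpl22 (chr5:168117921-168117980, plus strand): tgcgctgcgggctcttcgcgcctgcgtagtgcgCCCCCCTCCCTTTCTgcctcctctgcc
Rpl22l1 (chr2:113683156-113683215, plus strand): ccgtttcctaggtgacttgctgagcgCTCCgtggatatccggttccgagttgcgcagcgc
Rps19 (chr1:89608648-89608707, plus strand): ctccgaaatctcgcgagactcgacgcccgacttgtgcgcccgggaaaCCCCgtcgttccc

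The run was 13 bases long in Rpl10, 20 in Rps2, 8 in Rplp0 and 15 in Rpl22, but 4 in Rpl22l1 and 4 in Rps19. These genes were picked by name or by fold change and do not stand for all members. A run of at least 8 was found in 49 of the 63 members (77.8%), against 4698 of all 27457 promoters in the table (17.1%). Such a run needed no C at the start and could lie before it, so this is not a count of TOP motifs. Runs of A or G of that length, C or T on the other strand, were found in 2 members (3.175%) and in 18.7% of all promoters. The letters CTTCCG, read on both strands over 300 bases and able to overlap a C or T run, were found in 35 members (55.6%), against 17.4% of all promoters. AAGATGGCG, read in the same way, was found in 3 members (4.76%) and in 1.93% of all promoters. The 49 members with a run of at least 8 had a median log2 fold change of 0.0284, and the 14 without had 0.0576 (-0.0326 and -0.0051 when 1 low array, vehicle replicate 3, was left out).

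All values below are log2 of the processed signal relative to the array's 75th percentile, so that 0 is the 75th percentile itself, and differences are ADBAQ minus vehicle. The 75th percentile lay between 570 and 643 on the ADBAQ arrays and between 433 and 461 on the vehicle arrays, with 62.1% to 65.3% of probes well above background and no saturated spot. Each slide held 1 group and the groups were scanned on different days, so slide, scan day and treatment cannot be told apart. The 8 hepatocyte markers fixed for checking the tissue, such as Alb and Apob, were all measured. Of them 6 were called lower, and their signals summed to 4602 to 4938 times the 75th percentile in ADBAQ, against 6002 to 6534 in vehicle. Of the 2 erythroid markers measured both were called higher, with sums of 412 to 550 in ADBAQ, against 203 to 284 in vehicle. Of 5 cholangiocyte markers 2 were called higher and 1 lower, with sums of 2.45 to 3.84 in ADBAQ, against 1.57 to 1.87 in vehicle. Of 5 T and NK cell markers 1 was called lower, and none of the 6 Kupffer cell, 6 stellate cell, 3 endothelial, 3 neutrophil and 2 B cell markers measured nor Ptprc passed the test. In whole tissue, fewer cells of a type and less RNA per cell cannot be told apart, and the part of these shifts in the values below was not tested.

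The array of vehicle replicate 3 stood apart in these genes. It was the lowest of the 3 vehicle arrays in 76 of the 79 members and the lowest of all 6 arrays in 66. The median deviation of the members from their own mean over the 6 arrays was 0.0467, 0.0363 and -0.0140 on the ADBAQ arrays, and 0.0425, 0.0417 and -0.1429 on the vehicle arrays. Over all genes tested the median deviation of that last array was 0.0185, so after scaling the median gene did not share the low values of the members. Each array was scaled to a percentile of its own signals, which holds this median in place. The value therefore cannot show whether the array was low over all genes before scaling. Medians and fold changes of named genes that moved by over 1.5 times or changed sign without vehicle replicate 3 are given both ways.

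**Figure D1:**
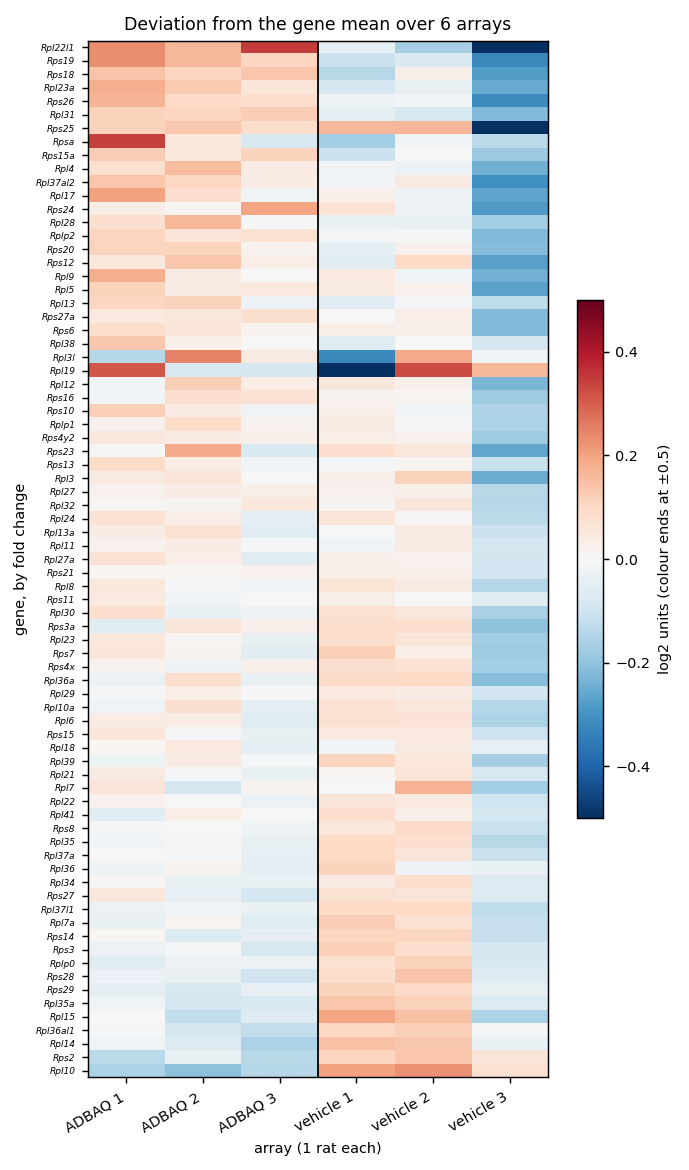
Deviation of 77 of the 79 ribosomal protein genes (rows, ordered by fold change) from its own mean over the 6 arrays (columns, ADBAQ then vehicle), in log2 units on the processed signal relative to the 75th percentile. The column of vehicle replicate 3 is blue, that is low, in nearly every row, with a median of -0.1429 over all 79.

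Relative to the 75th percentile, the ribosomal protein transcripts of ADBAQ rats lay close to those of vehicle rats, while with spike-in scaling they lay higher with most other genes (values below). Of the 79 genes, none was called higher and 1, Rpl10, was called lower by limma's moderated test with Benjamini-Hochberg adjustment (adjusted p under 0.05), where 20.3% of all genes tested were called, 9.05% higher and 11.3% lower. At an unadjusted p under 0.05, 6 members (7.59%) were higher and 2 (2.53%) lower, where 17.2% of all genes were higher and 21.1% lower. The median log2 fold change was 0.0356 (interquartile range -0.0107 to 0.1385), against -0.0385 (-0.2802 to 0.2159) over all genes tested. A total of 57 members had a positive and 22 a negative value, and 67 of 79 lay within 0.2 of 0. Without vehicle replicate 3 the median was -0.0134, with 34 positive and 45 negative values and no member called, where 11.7% of all genes were called. At an unadjusted p under 0.05, 3 members were then higher and 1 lower, where 1701 of 11384 genes were higher and 2130 lower. The direction of the members' small median therefore rested on that array.

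The errors of these small differences were narrow. The 95% confidence interval of the fold lay within 2-fold in either direction in all 79 members, against 79.6% of all genes tested, and within 1.5-fold in 74, against 48.9% of all genes. The lowest bound was -0.56, in Rpl19, and the highest 0.85, in Rpl22l1. The median SD between rats was 0.0456 in ADBAQ and 0.1142 in vehicle for the members, and 0.1275 in ADBAQ and 0.1441 in vehicle for all genes. The groups did not overlap in 18 members, 14 of them higher and 4 lower in ADBAQ, where 46.4% of all genes did not overlap, 21.2% higher and 25.1% lower. Without vehicle replicate 3, 14 members lay higher and 28 lower with no overlap, which is 53.2% of members beside 54.5% of all genes.

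**Figure D2:**
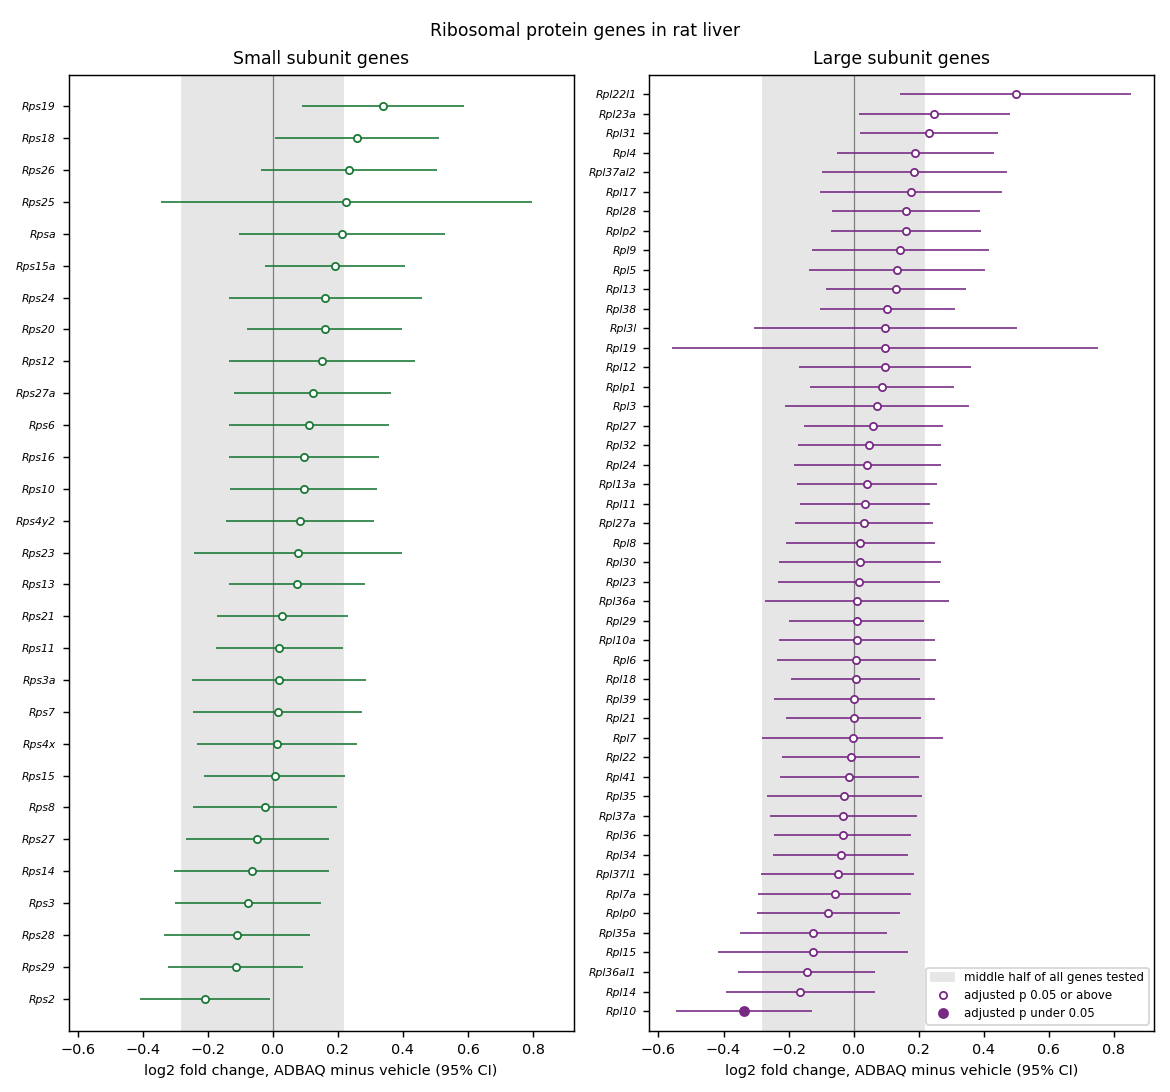
Log2 fold change, ADBAQ minus vehicle, with its 95% confidence interval for 77 of the 79 genes by subunit, and the interquartile range of all 11344 genes in grey. Rpl10 carries the filled point (adjusted p under 0.05, value above 0 with spike-in scaling), and 67 of the 77 points lie within 0.2 of 0.

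In the small subunit, which decodes the mRNA, none of 30 members passed the test and the median log2 fold change was 0.0807. At an unadjusted p under 0.05, 2 (6.67%) were higher and 1 (3.33%) lower, beside 17.2% and 21.1% of all genes. The median was 0.0049 without vehicle replicate 3, with 15 values above and 15 below 0, so most of its size rested on that array. With all arrays the values ran from -0.21 in Rps2 to 0.34 in Rps19. Rps2, a protein near the mRNA entry channel, had 8.27, 8.36 and 8.26 in ADBAQ, against 8.51, 8.54 and 8.46 in vehicle. All 3 ADBAQ arrays were below all 3 vehicle arrays, and its log2 fold change was -0.21 ± 0.08 (SE; adjusted p = 0.128), with all 7 of its probes below 0; with spike-in scaling the value was 0.55. Rps19 lies in the head of the subunit, and its human gene is the one most often mutated in Diamond-Blackfan anaemia. It had 7.13, 7.06 and 7.004 in ADBAQ, against 6.79, 6.82 and 6.57 in vehicle. The groups were apart here too, in the other direction, and the log2 fold change was 0.34 ± 0.10 (adjusted p = 0.0672), with 4 probes between 0.22 and 0.34.

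The head of the small subunit, which carries the tRNA path, had 13 measured members with a median of 0.1220, or 0.0420 without vehicle replicate 3. In the head none was called, and with all arrays 2 (15.4%, beside 17.2% of all genes) were higher at an unadjusted p under 0.05. Its lowest value was -0.11, in Rps29, a zinc-binding protein, at 8.18, 8.15 and 8.19 in ADBAQ, against 8.34, 8.32 and 8.19 in vehicle. Rps6, the substrate of the S6 kinases, had 8.44, 8.41 and 8.37 in ADBAQ, against 8.38, 8.37 and 8.13 in vehicle. The ranges overlapped, and the log2 fold change was 0.11 (adjusted p = 0.471), or 0.03 without vehicle replicate 3. Rpsa, which is also known as the laminin receptor precursor, had 6.34, 6.06 and 5.92 in ADBAQ, against 5.83, 5.99 and 5.87 in vehicle. Its difference of 0.21 (adjusted p = 0.290) came with 1 ADBAQ array well above the others. Rps27, a zinc finger protein, had 7.57, 7.48 and 7.43 in ADBAQ, against 7.59, 7.58 and 7.45 in vehicle, a difference of -0.05 (-0.09 without vehicle replicate 3). In Rps25, chosen after its values were seen, vehicle replicate 3 was at 4.41, against 5.25 on both other vehicle arrays and 5.20, 5.22 and 5.17 in ADBAQ. Its log2 fold change was 0.23 with that array and -0.05 without it.

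In the large subunit, which forms the peptide bond, 1 of 49 members was called and the median log2 fold change was 0.0203. The median was -0.0333 without vehicle replicate 3, with 19 values above and 30 below 0. Rpl10 joins late in the maturation of the subunit and sits near the catalytic centre. It had 8.25, 8.20 and 8.27 in ADBAQ, against 8.61, 8.64 and 8.48 in vehicle. All 3 ADBAQ arrays were below all 3 vehicle arrays, and Rpl10 fell, with a log2 fold change of -0.34 ± 0.09 (adjusted p = 0.0435) relative to the 75th percentile but 0.42 with spike-in scaling. Its 3 probes had -0.35, -0.34 and -0.19, and 2 of them were called. The call was lost when any 1 of the 6 arrays was left out, with adjusted p between 0.0548 (without vehicle replicate 3) and 0.121 (without ADBAQ replicate 2).

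The stalk of the large subunit, made of Rplp0, Rplp1 and Rplp2 on a base that includes Rpl12, recruits the elongation factors. Rplp0, which anchors the stalk, had 8.93, 8.97 and 8.97 in ADBAQ, against 9.07, 9.11 and 8.92 in vehicle. Rplp1 had 9.04, 9.11 and 9.04 in ADBAQ, against 9.06, 9.01 and 8.86 in vehicle, and its partner Rplp2 had 8.42, 8.37 and 8.39 in ADBAQ, against 8.30, 8.30 and 8.09 in vehicle. Rplp2 was the member of this group whose arrays did not overlap. The log2 fold changes were -0.08 for Rplp0, 0.09 for Rplp1, 0.16 for Rplp2 and 0.10 for Rpl12, and none passed the test. These were, without vehicle replicate 3, -0.14 for Rplp0, 0.03 for Rplp1, 0.09 for Rplp2 and 0.01 for Rpl12.

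Rpl5 and Rpl11 bind the 5S rRNA, and the free complex is known to bind Mdm2 when ribosome assembly is disturbed. Rpl5 had 6.18, 6.11 and 6.12 in ADBAQ, against 6.11, 6.09 and 5.80 in vehicle. Rpl11 had 7.39, 7.41 and 7.36 in ADBAQ, against 7.35, 7.41 and 7.28 in vehicle. The ranges overlapped in both, with differences of 0.13 (adjusted p = 0.431) and 0.04 (adjusted p = 0.788). Leaving out vehicle replicate 3 gave 0.03 for Rpl5 and 0.0033 for Rpl11. The 8 measured proteins at the exit tunnel and its rim, where the growing chain leaves, had a median of 0.1362 (0.1021 without vehicle replicate 3). They ran from -0.03 in Rpl35 (-0.11 without that array) to 0.25 in Rpl23a, both docking proteins of the rim. None was called, and 2 (25.0%, beside 17.2% of all genes) were higher at an unadjusted p under 0.05. Rpl19, of the same group, had 8.34, 7.95 and 7.94 in ADBAQ, against 7.39, 8.36 and 8.20 in vehicle. That spread belonged to its chosen probe, and its 3 other probes lay between 0.00 and 0.11. Its log2 fold change on the chosen probe was 0.10, or 0.20 without vehicle replicate 3. Rpl3, near the catalytic centre, had 6.68, 6.70 and 6.64 in ADBAQ, against 6.66, 6.75 and 6.39 in vehicle. Its difference was 0.07, and -0.0333 without vehicle replicate 3.

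**Figure D3:**
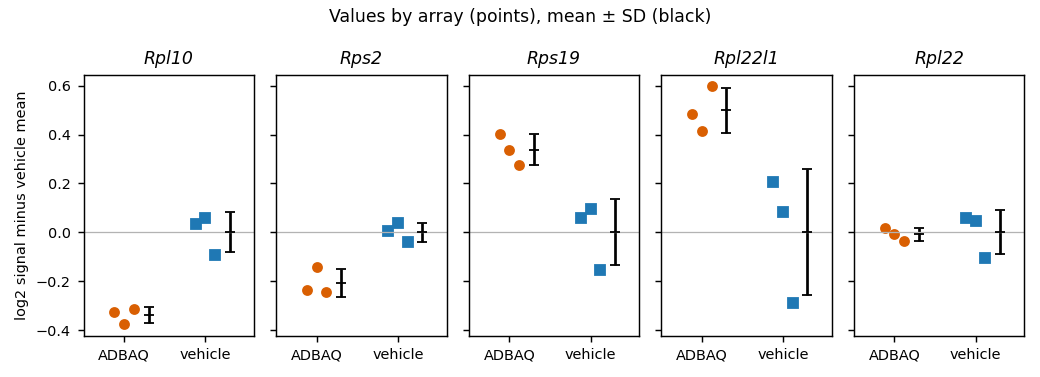
Log2 signal of 5 ribosomal protein genes on each array, set to 0 at the gene's vehicle mean, with the group mean and SD (n = 3 rats each). ADBAQ points lie below the vehicle points in Rpl10 and Rps2 (both above 0 with spike-in scaling), above them in Rps19 and Rpl22l1, and among them in Rpl22.

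The highest log2 fold change of the 79 belonged to Rpl22l1, a paralogue that can take the place of Rpl22 in the large subunit. It had 5.34, 5.27 and 5.45 in ADBAQ, against 5.06, 4.94 and 4.57 in vehicle. The groups did not overlap, but the log2 fold change of 0.50 ± 0.15 (95% interval 0.14 to 0.85) missed the threshold (adjusted p = 0.0623). Its 4 probes lay between 0.43 and 0.61, and 1 of them was called (adjusted p = 0.0373). Rpl22 itself had 6.98, 6.96 and 6.93 in ADBAQ, against 7.02, 7.01 and 6.86 in vehicle, and its difference was -0.01. With vehicle replicate 3 left out, Rpl22l1 had 0.35 and Rpl22 -0.06.

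The difference of the 2 log2 fold changes, Rpl22l1 minus Rpl22, was 0.51 (0.41 without vehicle replicate 3). On the single arrays this contrast was 0.47, 0.42 and 0.63 above the vehicle mean in ADBAQ, against 0.15, 0.04 and -0.18 in vehicle. With 3 rats a group the two-sided exact permutation p was 0.1, the smallest the design allows (0.15 adjusted over the 3 paralogue pairs compared). Rpl3l, a paralogue of Rpl3 known from striated muscle, was dim, at -2.72, -2.33 and -2.54 in ADBAQ, against -2.90, -2.39 and -2.59 in vehicle, and its fold change differed from that of Rpl3 by 0.0238 (exact permutation p = 1), or by 0.1472 without vehicle replicate 3. Rps4y2 and Rps4x differed by 0.0708 (exact permutation p = 0.1, adjusted 0.15). Rps4y2 was measured by 2 probes that disagreed in size, with 0.08 on the chosen and 1.06 on the dimmer one, which was called (adjusted p = 0.0272). On the chosen probe the value was 0.01 without vehicle replicate 3.

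The 18 measured members whose human genes are known from Diamond-Blackfan anaemia, an inherited failure of red cell production, had a median of 0.0478 (0.0042 without vehicle replicate 3). They ran from -0.12 in Rpl15 to 0.34 in Rps19. None was called, and 2 (11.1%, beside 17.2% of all genes) were higher at an unadjusted p under 0.05. Rpl15 had 6.04, 5.92 and 5.98 in ADBAQ, against 6.24, 6.19 and 5.89 in vehicle, and its fold change was -0.24 without vehicle replicate 3.

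Different probes of a gene mostly gave the same picture. Of 72 members with several measured probes, 50 had all of them on the same side of 0, and the median span between a gene's lowest and highest probe was 0.1018. The span was over 0.5 in 3 members, Rps4y2, Rps16 and Rpl28, where in each case a dimmer probe was higher (1.06, 0.78 and 0.64). That probe of Rpl28 had a mean of -5.28, against 6.64 on the chosen probe. The Rps16 probe had 2.75, 1.76 and 1.69 in ADBAQ, against 1.34, 1.48 and 1.04 in vehicle, and was not called. A single probe other than the chosen one was called higher in 5 members, among them Rpl22l1, Rps4y2, Rpl28 and Rps26 (0.43). Of the members' 237 measured probes, 5 were called higher and 2 lower. On their chosen probe, 9.05% of all genes were called higher and 11.3% lower. The single probes named here were chosen after their values were seen. RefSeq lists 883 ribosomal protein pseudogenes in the rat, and probe sequences were not examined for such copies, so the gene assigned to a probe is uncertain.

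The number of members called depended on how arrays were scaled to each other. Quantile normalization called 9 members higher (10.2% of all genes) and none lower with a median of 0.1589, and cyclic loess 6 higher (10.1% of all genes) and none lower with a median of 0.1282. Among them Rps19 (0.46 and 0.42) and Rpl22l1 (0.57 and 0.55) were called in both, while Rpl10 (-0.21 and -0.23) was not. Normexp background correction called 7 higher (12.3% of all genes) and 1, Rpl10, lower. Scaled to the spike-in controls, all 79 members were called higher with a median of 0.7936, where 78.9% of all genes were called higher with a median of 0.7195. The members' median lay above that of all genes by 0.0741 both with this scaling and with the 75th percentile. Changing between these scalings shifts every fold change equally, so this gap is the same by construction. Without vehicle replicate 3 the gap was 0.0253, where 80 members were tested.

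**Figure D4:**
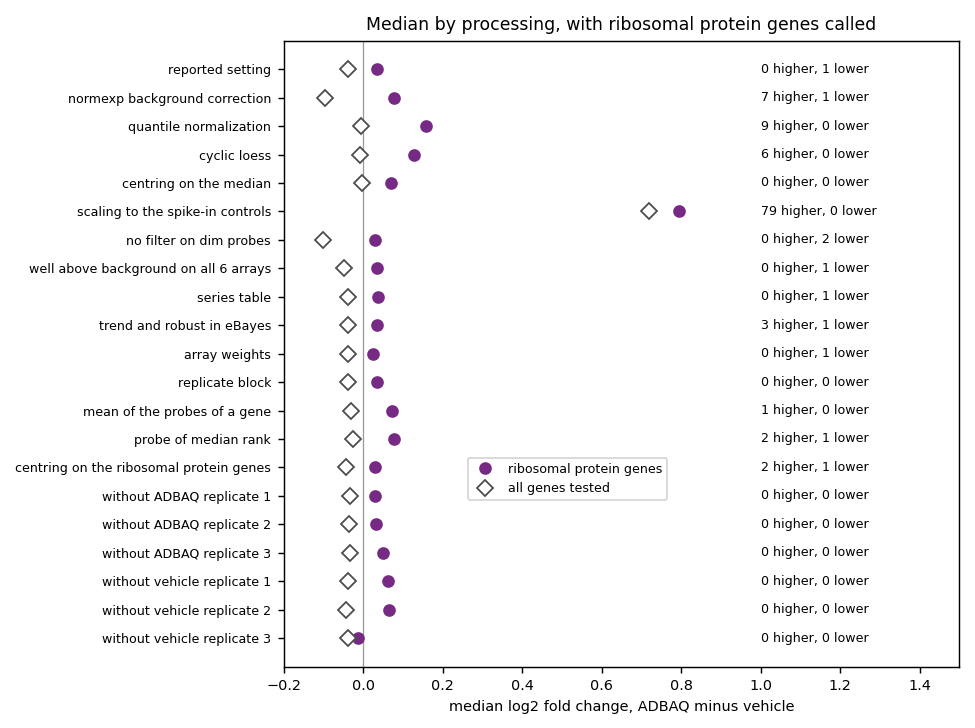
Median log2 fold change, ADBAQ minus vehicle, of the ribosomal protein genes (filled circles) and of all genes tested (open diamonds) under each processing choice, with the number of ribosomal protein genes called at the right. Spike-in scaling shifts both medians equally by construction (0.7936 and 0.7195). The members' median is -0.0135 without vehicle replicate 3, where 80 were tested.

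Among ribosomal protein genes whose symbols lie outside the rule, Fau, the ubiquitin-like fusion of a small subunit protein, had a log2 fold change of 0.02 and Rack1, a scaffold on the small subunit head, 0.08, and neither was called (-0.02 for Fau and 0.01 for Rack1 without vehicle replicate 3). None of the 19 other measured TOP mRNAs was called, with a median of 0.0788 (0.0144 without vehicle replicate 3). At an unadjusted p under 0.05, 1 (5.26%) was higher and 2 (10.5%) lower, beside 17.2% and 21.1% of all genes. In this list Tpt1, a growth-associated protein, had -0.13, and Pabpc1, the poly(A)-binding protein, had 0.11, or 0.03 without that array. The elongation factors Eef1a1 and Eef2, which deliver the tRNA and move the ribosome, had -0.16 (adjusted p = 0.284) and -0.18 (adjusted p = 0.249), and 0.60 and 0.58 with spike-in scaling. With normexp both were called lower, Eef1a1 at -0.26 (adjusted p = 0.0352) and Eef2 at -0.26 (adjusted p = 0.0485). Normexp called 2652 of 11344 genes lower, against 1281 in the comparison as reported.

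Assembly factors process the rRNA and join the proteins to it in the nucleolus. Of 29 measured assembly factor genes 14 rose and none was called lower (48.3%, beside 20.3% of all genes called in either direction), and the median log2 fold change was 0.4699. In 24 of them all ADBAQ arrays were above all vehicle arrays, where 21.2% of all genes showed this. Gar1, of the complexes that guide pseudouridine formation in rRNA, had 0.51, 0.37 and 0.47 in ADBAQ, against -0.93, -0.41 and -0.33 in vehicle, and rose by 1.01 ± 0.17 (adjusted p = 0.0147). Nop56, of the complexes that guide rRNA methylation, had 4.24, 4.03 and 4.06 in ADBAQ, against 3.02, 3.37 and 3.52 in vehicle, and rose by 0.81 ± 0.15 (adjusted p = 0.0189). Rpf2, which brings the 5S complex into the large subunit in yeast, rose by 0.83 ± 0.16 (adjusted p = 0.0202), and Rrp9, of the U3 complex, by 0.76 ± 0.18 (adjusted p = 0.0349). Nop10, a partner of Gar1, was the single member with a negative value, at -0.29 (adjusted p = 0.0712). With spike-in scaling all 29, Nop10 among them, were called higher.

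The number of calls depended on the arrays and on the processing. The count of assembly factors called was 2, 4 and 3 without ADBAQ replicate 1, 2 and 3, and 7, 8 and 9 without vehicle replicate 1, 2 and 3, while 902 to 1547 genes were called in all, against 2308 with all arrays. It was 23 of 29 with normexp (35.7% of all genes called), where 1 more was called lower, 16 with quantile normalization, 16 with cyclic loess (20.2%) and 29 with spike-in scaling (80.5%). It was 1 with the replicate number as a block (8.68%) and 9 when arrays were centred on the ribosomal protein genes (17.1%). Gar1 lost its call without ADBAQ replicate 1 or 3, Nop56 without any 1 ADBAQ array, Rpf2 without ADBAQ replicate 1 or 3 or vehicle replicate 1 or 3, and Rrp9 without any array but ADBAQ replicate 3. No test of the difference between the assembly factors and the ribosomal proteins was made.

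**Figure D5:**
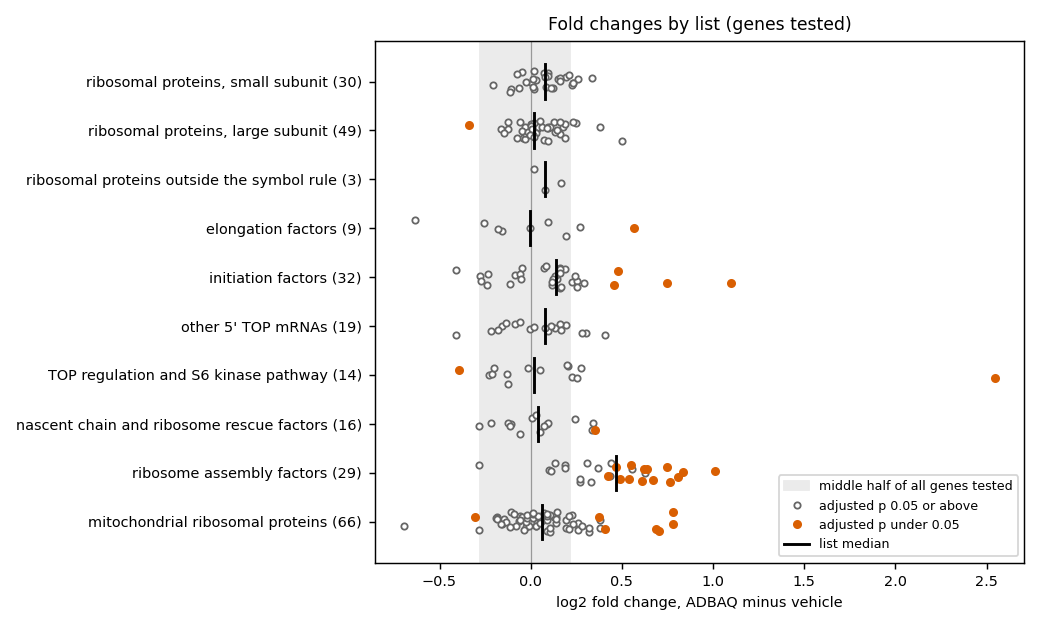
Log2 fold change, ADBAQ minus vehicle, of every tested gene in the lists of ribosomal proteins, translation factors, TOP mRNAs and their regulators, assembly factors and mitochondrial ribosomal proteins, with the list median as a bar and genes with adjusted p under 0.05 filled. The assembly factors (median 0.4699, 14 of 29 called) lie to the right of the small subunit (0.0807) and large subunit (0.0203) genes.

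Of 32 initiation factor genes 4 were called higher and none lower (12.5%, beside 20.3% of all genes called in either direction and 9.05% called higher), with a median of 0.1411. Normexp called 8 higher and 2 lower (35.7% of all genes called), and the replicate block 2 higher (8.68%). Eif2b3, a subunit of the exchange factor for eIF2, had 1.06, 0.91 and 1.02 in ADBAQ, against -0.25, -0.25 and 0.19 in vehicle, and rose by 1.1004 ± 0.14 (adjusted p = 0.00821). Eif1ax, which helps to find the start codon, rose by 0.75 ± 0.10 (adjusted p = 0.00786). Both calls held with each array left out. Eif3j, a loosely bound subunit of eIF3, rose by 0.48, and Eif2s1, the regulated alpha subunit of eIF2, by 0.46, but both calls were lost without any 1 ADBAQ array.

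Of 9 genes listed as elongation factors 1 was called (11.1%, beside 20.3% of all genes called). This was Eef1e1, known as a component of the multi-synthetase complex, which rose by 0.56 ± 0.14 (adjusted p = 0.0370). Its call remained without vehicle replicate 3 and was lost without any other array. Without vehicle replicate 3 Eef2k, the kinase of Eef2, chosen after its values were seen, was called lower at -0.79 (adjusted p = 0.0387), against -0.63 with all arrays. Of 16 genes for nascent chain and ribosome rescue factors 1 was called (6.25%, beside 20.3% of all genes called). That gene was Dnajc2, a chaperone at the ribosome, which rose by 0.35 (adjusted p = 0.0409) and lost its call whichever array was left out. Of 14 genes of TOP regulation and the S6 kinase pathway 1 rose and 1 fell (14.3%, beside 20.3% of all genes called). Ddit4, an inhibitor of mTOR complex 1, had 2.91, 3.03 and 2.39 in ADBAQ, against 0.48, 0.40 and -0.17 in vehicle, and rose by 2.54 ± 0.24 (adjusted p = 0.00350). Rps6kb2, S6 kinase 2, had 3.27, 3.28 and 3.05 in ADBAQ, against 3.63, 3.52 and 3.64 in vehicle, a fall of -0.40 ± 0.10 (adjusted p = 0.0444) that was 0.36 with spike-in scaling and lost its call without any 1 array. Mtor itself had -0.12 (adjusted p = 0.343), but was called lower with normexp at -0.29 (adjusted p = 0.0226), where 2652 of 11344 genes were called lower. The 66 mitochondrial ribosomal protein genes measured, a list added after seeing the data, had 6 called higher and 1 lower (10.6%, beside 20.3% of all genes called in either direction and 9.05% called higher) and a median of 0.0607 (0.0255 without vehicle replicate 3). Normexp called 15 higher and 2 lower (35.7% of all genes called), and without vehicle replicate 3 the counts were 3 and 0 (11.7% of all genes called).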

How the data were processed

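Each of 6 liver RNA samples, from separate animals per the labels' protocols, was read on its own 1-colour Agilent array. Per the file headers, Feature Extraction 10.7.1.1 made the deposited intensity values, with background removed from the processed signal, and the design was built on rn4 (the submitters' processing notes give version 10.7). Other deposited columns are flags, per the file headers. The deposited series table holds the authors' ratio of the processed signal to the array's 75th percentile, found by setting it against the scanner values; it is linear and not centred, and its column medians were 0.093, 0.0971 and 0.0952 for ADBAQ and 0.0967, 0.097 and 0.0983 for vehicle.

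Each array held 61657 probes and 1319 control spots, with 0 to 2 outlier spots left out. RefSeq accessions named 27460 probes of 15284 genes through a GRCr8 table. Signals were scaled to the 75th percentile, and taken as log2. A probe was kept where some group had the above-background flag on each of its 3 arrays. Groups were compared with limma 3.58.1 (lmFit and eBayes) in R 4.3.3, with Benjamini-Hochberg adjustment over the 38694 probes kept and a threshold of 0.05. The probe with the highest mean signal stood for its gene, and it was kept under every alternative but the other probe rules. On simulated data of 38691 probes, 61 of 100 probes changed by 1 on the log2 scale and 88 of 100 changed by 2 were called, with 5 unchanged probes called. No other probes were changed, whereas 20.3% of all genes were called in the data. The changed probes were drawn from all probes kept, so these rates do not carry over to the members. The number of arrays limits the precision.

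The ribosomal protein genes, the 13 gene lists and the tests were chosen with earlier results of these data known. Named are members past the threshold, the highest and lowest of each subunit and list, genes fixed by name, and up to 4 called genes of each other list; exceptions are stated, and 3 genes counted here are not reported by name. Highest and lowest signal levels are not ranked between genes, because different probes are not comparable in level. Alternatives were normexp (offset 50, on the median spot signal, since the files hold no mean spot signal), quantile, cyclic loess, median and spike-in scaling, centring on the ribosomal protein genes (chosen after seeing the data), 2 other filters, the series table, trend and robust, array weights, a block for the replicate number, 2 other probe rules, and leaving out each array. Counts of each list under these alternatives were added after seeing the data.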

Additional observations from a re-analysis of the deposited data

How the results depend on the processing

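With the 75th percentile, 0 ribosomal protein genes were called higher, 1 lower and 2308 genes in all. Normexp called 7 higher and 4047 in all (34.5% of all calls higher, against 44.5%). Quantile normalization called 9 higher, 0 lower (median 0.1589), and cyclic loess 6 higher, 0 lower (0.1282). Median centring called 0 lower. Spike-in scaling called 79 higher, 0 lower (0.7936) and 9130 in all (98.0% higher). No filter gave 2 lower and 3533 in all (23.1% of all genes). Trend and robust called 3 higher, where 11.3% of all genes were called higher. The mean of a gene's probes called 1 higher, 0 lower (9.35% of all genes higher). The probe of median rank called 2 higher (9.15% of all genes). Centring on the ribosomal protein genes, chosen after seeing the data, called 2 higher (7.92% of all genes). Quantile normalization split all calls 50.8% higher. The replicate block called 0 lower and 985 in all. Deviations of same-numbered arrays had r of -0.0292, -0.02 and -0.0046, and those of differently numbered arrays had r from -0.0451 to 0.0643. The labels state no pairing, and these values cannot show whether the rats were paired. Leaving out an array called 0 lower each time and 902 to 1547 genes in all, with a member median from -0.0135 to 0.0662. The requirement of all 6 arrays, the series table and array weights kept the 1 lower call and none higher. Slide as a block was not run, since each slide held 1 group.

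These single values changed sign, none of them called in the comparison as reported except Rpl10 and Rps6kb2. Spike-in scaling gave Rpl10 0.42, Rps2 0.55, Rpl22 0.75, Rplp0 0.68, Rps27 0.71, Eef1a1 0.60, Eef2 0.58, Tpt1 0.62, Mtor 0.63 and Rps6kb2 0.36, all shifted by its construction. It called all 79 members and all 29 assembly factors higher, so Rps29, Rpl15, Rpl35 and Nop10 changed sign too. Normexp gave Rpl22 0.038, Rps27 0.0943, Rpl3l -0.0852 and Fau -0.0307; quantile normalization Rpl22 0.12, Rplp0 0.18, Rps27 0.0593 and Tpt1 0.0209; cyclic loess Rpl22 0.0775, Rplp0 0.0447 and Rps27 0.048; median centring Rpl22 0.0265; array weights Fau -0.0043. The mean of the probes gave Rpl22 0.0257 and Rplp0 0.081, and the probe of median rank Rpl22 0.0051, Rplp0 0.0422 and Tpt1 0.0821. With each array left out in turn, Rpl22 ran from -0.0601 to 0.0206, Rpl3 from -0.0333 to 0.1493, Rpl3l from -0.04 to 0.2166 and Fau from -0.0186 to 0.07. The cause was not tested. All 79 members were well above background on all 6 arrays, and 3 rats a group limit the precision.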
